A study of Mus musculus with 5 samples.

Results

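Gata3, Batf, Irf4, Prdm1, Nfil3, Klrg1, Pparg, Areg, Id2 and Bhlhe40 are genes of the tissue-type programme of regulatory T (Treg) cells, the Foxp3-expressing CD4+ T cells that restrain immune responses. The 10 genes were taken by name, and the occupancy of RNA polymerase II (Pol II) was examined in every peak whose midpoint lay in the annotated gene or in the 3 kb upstream of it. All 10 had at least 1 peak and 0 were without one. Together they held 61 of the 56615 peaks of the data set, and they were 10 of the 12876 genes with a peak.

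Pol II was mapped by CUT&Tag, in which an antibody bound to chromatin guides a transposase to cut the DNA around the protein, in nuclei of splenic Treg cells sorted as CD3+CD4+Foxp3-YFP+. The control group (Ctrl, titled WT in the sample names) was Foxp3Cre Setd2flox/+ and the knockout group (KO) Foxp3Cre Setd2flox/flox, so both carried the Cre-YFP driven by Foxp3 and the controls already had 1 floxed allele of Setd2, a histone H3 lysine 36 methyltransferase. All mice were C57BL/6, 8 weeks old, of pooled sex, and received complexes of 1 ug IL-2 with 5 ug anti-IL-2, which expand Treg cells, on 3 days and were killed 48 hours after. Each group had 2 libraries of 80000 nuclei, and 1 IgG library is not analysed here. The methods state that cells from 2 mice were pooled before sorting and name each library of nuclei a biological replicate, but it is unclear whether the libraries of 1 group came from separate mice, so the spread between them may be technical.

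BATF and IRF4 bind DNA together and prepare the effector Treg state, and BATF starts the path from the lymphoid precursor to the tissue Treg cell. NFIL3 marks that precursor, whereas GATA3, PPARG, PRDM1 (Blimp-1), ID2 and BHLHE40 are transcriptional regulators that act in effector or tissue Treg cells. KLRG1 is an inhibitory surface receptor of terminally differentiated cells, and amphiregulin, the product of Areg, is an epidermal growth factor receptor ligand by which tissue Treg cells promote repair. Pol II over a gene reports engaged and paused polymerase, not the level of its mRNA.

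Sequences are shown for the Gata3 promoter and for places where the motif letters of these factors fell under Pol II. RefSeq promoters (GRCm38.p6, 250 bases before to 50 after a start site) were listed for 8 of the 10 genes, and Klrg1 and Bhlhe40 had no entry. The promoters of Batf, Irf4, Prdm1, Areg and Id2 lay with all 300 bases in a peak of their gene. The motifs were searched on both strands as TGANTCA for AP-1 (the BATF and JUN family), AGATAA for GATA, GAAANNGAA for IRF, TTANNTAA for NFIL3 and CACGTG for the class B E-box of BHLHE40, and 0 matches of different motifs overlapped in the windows of these genes. The first 3 sequences are promoters, printed on the strand of the gene, with matches in capitals. The Gata3 promoter (chr2:9878551-9878850, minus strand) had 98 of its 300 bases in a peak and no match. The Batf promoter (chr12:85686470-85686769, plus strand) held a GATA match that began at position -245 from the start site. The Prdm1 promoter (chr10:44458699-44458998, minus strand) held an AP-1 match that began at position -48.
Gata3 promoter: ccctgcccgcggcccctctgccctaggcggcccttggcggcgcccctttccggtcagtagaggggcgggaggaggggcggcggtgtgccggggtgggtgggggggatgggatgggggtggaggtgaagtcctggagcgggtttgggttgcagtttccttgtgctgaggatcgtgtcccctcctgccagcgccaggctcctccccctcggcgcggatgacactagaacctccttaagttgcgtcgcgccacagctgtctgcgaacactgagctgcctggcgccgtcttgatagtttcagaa
Batf promoter: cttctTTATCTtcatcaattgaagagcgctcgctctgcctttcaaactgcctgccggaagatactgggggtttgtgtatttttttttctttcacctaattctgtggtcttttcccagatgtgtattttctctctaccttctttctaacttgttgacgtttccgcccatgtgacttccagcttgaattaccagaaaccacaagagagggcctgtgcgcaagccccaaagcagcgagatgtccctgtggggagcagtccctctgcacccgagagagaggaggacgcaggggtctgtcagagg
Prdm1 promoter: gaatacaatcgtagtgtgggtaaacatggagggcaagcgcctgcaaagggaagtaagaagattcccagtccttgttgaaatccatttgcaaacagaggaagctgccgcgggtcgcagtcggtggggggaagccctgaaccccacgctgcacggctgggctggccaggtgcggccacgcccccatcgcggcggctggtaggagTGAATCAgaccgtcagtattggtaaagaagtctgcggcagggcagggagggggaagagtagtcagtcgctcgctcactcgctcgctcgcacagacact

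The next 3 sequences are the central 300 bases of peaks in introns, on the plus strand of GRCm38.p6, and the coordinates are those of the 300 bases. The fourth peak of Irf4 (chr13:30757770-30758069) had an IRF match at bases 116 to 124 and an AP-1 match at bases 133 to 139. The seventh peak of Nfil3 (chr13:52971274-52971573) had an IRF match at bases 75 to 83 and an AP-1 match at bases 111 to 117. The only peak of Pparg (chr6:115361394-115361693) had an AP-1 match at bases 174 to 180.
Irf4 peak 4: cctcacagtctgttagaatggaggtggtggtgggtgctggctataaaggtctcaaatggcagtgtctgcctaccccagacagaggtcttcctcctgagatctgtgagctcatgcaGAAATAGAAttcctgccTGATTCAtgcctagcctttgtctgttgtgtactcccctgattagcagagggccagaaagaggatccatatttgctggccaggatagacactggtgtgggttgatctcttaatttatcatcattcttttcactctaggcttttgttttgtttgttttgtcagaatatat
Nfil3 peak 7: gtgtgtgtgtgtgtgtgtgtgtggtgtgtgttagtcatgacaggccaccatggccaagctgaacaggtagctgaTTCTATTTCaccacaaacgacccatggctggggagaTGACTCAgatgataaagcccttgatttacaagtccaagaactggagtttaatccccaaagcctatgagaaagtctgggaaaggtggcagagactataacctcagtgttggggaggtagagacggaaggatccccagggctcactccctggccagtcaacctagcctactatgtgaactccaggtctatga
Pparg peak 1: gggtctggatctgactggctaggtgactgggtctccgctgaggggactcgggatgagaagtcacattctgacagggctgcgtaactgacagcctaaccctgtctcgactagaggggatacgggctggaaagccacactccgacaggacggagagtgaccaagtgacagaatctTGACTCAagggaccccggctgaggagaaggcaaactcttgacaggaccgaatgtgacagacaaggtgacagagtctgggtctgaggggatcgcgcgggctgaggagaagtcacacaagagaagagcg

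In these sequences the capitals mark letters, not measured binding. Both AP-1 and IRF letters stood in 2 of the 61 peak centres of the 10 genes (3.28%), those of Irf4 and Nfil3 above, and in 0.738% of the centres of all 56615 peaks. Single motifs were found in 7 centres for AP-1 (11.5%, against 8.81% of all peaks), in 9 for GATA (14.8% against 10.4%), in 9 for IRF (14.8% against 6.89%), in 5 for NFIL3 (8.2% against 4.46%) and in 8 for the E-box (13.1% against 6.11%). The GATA letters were in no peak centre of Gata3, Pparg, Areg or Bhlhe40. Only the central 300 bases of each peak were searched, a small part of long peaks such as the 11207 bp peak of Bhlhe40. Among the 10 promoter windows listed for the 8 genes (3 of them for Pparg), 1 each held the AP-1, GATA and NFIL3 letters and 0 held the IRF letters or the E-box, whereas the shares over all 32851 RefSeq promoters were 7.81%, 11.2%, 8.56%, 6% and 7.15% in the order of the motifs given above.

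The total count per library was 4489646 to 13351007, and the libraries numbered 1 were the deeper of both groups. The 10 genes took a larger share of the counts in these (0.192% in Ctrl, 0.188% in KO) than in the libraries numbered 2 (0.164% and 0.162%). To compare libraries of unequal depth, counts were divided by the size factor of each library (DESeq2), and such normalized counts are given throughout. The Treg markers Foxp3, Il2ra, Ctla4, Ikzf2, Cd3e and Cd4 all had peaks, with a summed level of 26657 to 31264 in Ctrl and 28243 to 32203 in KO. Ms4a1, Pax5, Cd8a, Cd8b1, Ncr1, Klrb1c, Lyz2, Csf1r, Itgax, Adgre1, Gata1, Hbb-bt, Il5 and Il13, which mark other cells of the spleen, had no peak. The markers of other cells that had one were Cd79a (67.3 to 123), Spi1 (401 to 469), Klf1 (189 to 224) and Il4 (33.7 to 65.8), and none of these 4 had a called change. Setd2 held 512 and 518 in Ctrl against 455 and 569 in KO, over 9 peaks, and the deletion of a part of the gene need not alter Pol II elsewhere in it, so this does not check the labels.

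The genes differed in how Pol II was laid out. Pol II covered long stretches of 6 of them: Gata3, Batf, Irf4, Prdm1, Nfil3 and Bhlhe40 were in the top 10% of all genes by the length under peaks. Bhlhe40 was covered by 1 peak of 11207 bp, which ran beyond both ends of the 6297 bp gene. Nfil3 had 79.2% of the gene and its 3 kb upstream under peaks, Irf4 68.7%, Gata3 59.1%, Id2 51.4% and Batf 40.5%. At the other end Areg had 20.2%, Klrg1 14.2%, Prdm1 9.76% and Pparg 0.535%, a single intronic peak of 709 bp in a gene of 129449 bp. Of the 61 peaks, 45 had their midpoint in an intron, 9 upstream, 3 in a 3' UTR exon, 2 in a coding exon, 1 in a 5' UTR exon and 1 in a non-coding exon. Counting a peak as promoter when its midpoint was within 3 kb of any annotated start site of the gene, 27 were promoter and 34 gene body peaks.

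**Figure D1:**
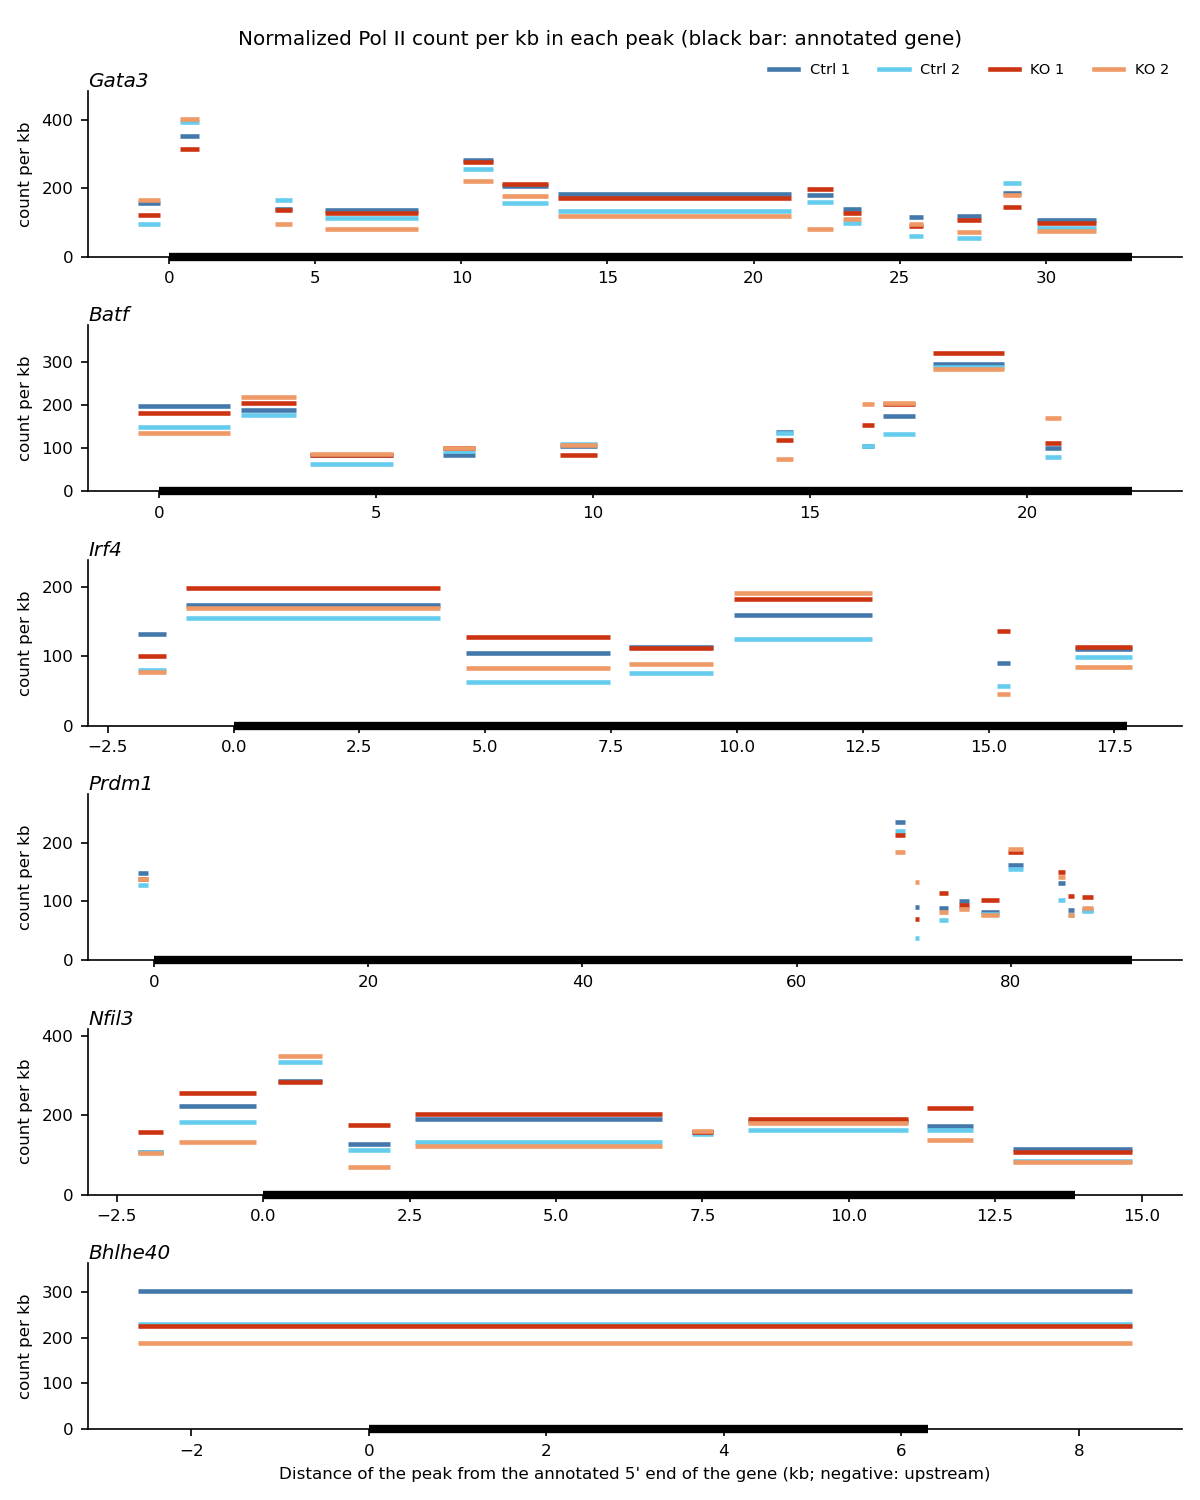
Normalized Pol II count per kb (y axis) in each peak of 6 genes against the distance from the annotated 5' end of the gene in kb (x axis); each line spans 1 peak in 1 library (Ctrl 1 and 2 in blues, KO 1 and 2 in red and orange) and the black bar is the gene. The Prdm1 peaks stand at the 5' end and then beyond 69.6 kb, and in most peaks the lines of Ctrl and KO interleave.

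In Ctrl, the normalized count per kb of peak put Bhlhe40 first at 263, higher than in 90.8% of all genes. Its Ctrl libraries (295 and 231) did not overlap those of any other of the 10 genes. Nfil3 (162), Id2 (160), Gata3 (155), Batf (154) and Areg (152) followed, and neighbours in this order overlapped in their Ctrl libraries. Irf4 (126), Prdm1 (115) and Klrg1 (106) came next, each again overlapping the one before. Pparg was last at 49.8, higher than in only 0.559% of genes, with Ctrl libraries (52.5 and 47.1) under those of every other of the 10. Per kb of annotated gene the order in Ctrl was Bhlhe40 (468), Id2 (156), Nfil3 (156), Irf4 (101), Gata3 (100.2), Batf (70.7), Areg (41.2), Klrg1 (18.7), Prdm1 (11.6) and Pparg (0.273). Prdm1, whose annotation includes a long stretch without peaks, thus stood under Klrg1 on this scale. The sum also counts upstream peaks and parts of peaks beyond the gene, which can raise short genes. The Bhlhe40 peak is 11207 bp long in a gene of 6297 bp, and 2 of the 3 Id2 peaks lie upstream.

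To ask whether loss of Setd2 changed Pol II at these genes, the counts of all peaks of each gene were summed and the groups were compared with the Wald test of DESeq2 over all 12876 genes. At an adjusted p under 0.05, 0 of the 10 genes differed, beside 0.101% of all genes, and the adjusted p was 1.00 for each. Among them only Bhlhe40 had an unadjusted p under 0.05, a level that 2.88% of all genes passed. The log2 fold changes were above 0 for 5 genes and below 0 for 5, with a median of 0.015 against -0.0042 over all genes. Both KO libraries lay on 1 side of both Ctrl libraries for 4 genes (Batf, Prdm1 and Pparg higher, Bhlhe40 lower), and this was so for 34.4% of all genes. By edgeR 0 of the 10 were called too, with 1 at an unadjusted p under 0.05. In pooled nuclei, fewer cells with Pol II at a gene and less Pol II per cell cannot be told apart.

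**Figure D2:**
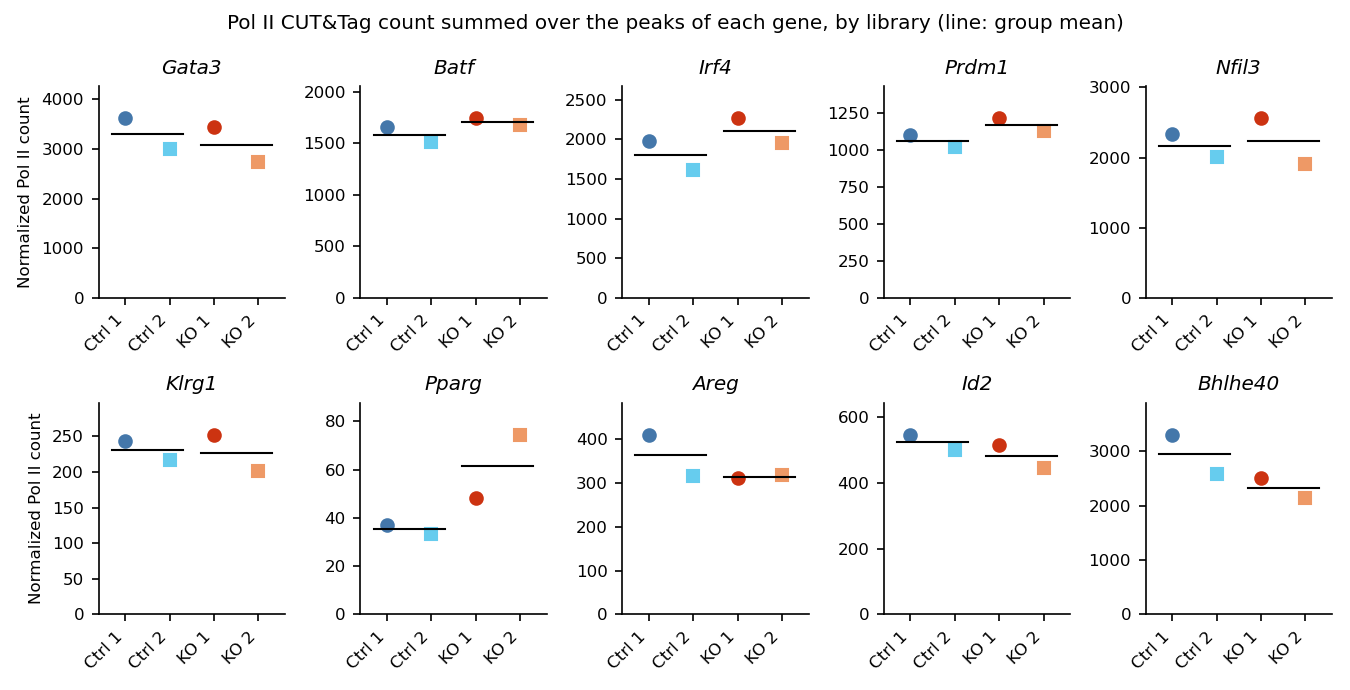
Normalized Pol II count summed over the peaks of each gene (y axis, from 0) in Ctrl 1, Ctrl 2, KO 1 and KO 2 (x axis); points are libraries and lines group means. The 2 KO libraries are above both Ctrl libraries for Batf, Prdm1 and Pparg and below both for Bhlhe40, and Ctrl 1 is above Ctrl 2 in all 10 genes.

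Batf, on chromosome 12 from 85686669 to 85709087, held 1657 and 1512 in Ctrl against 1742 and 1679 in KO. KO was thus higher by 0.11 on the log2 scale (SE 0.13, 95% interval -0.15 to 0.37), with no overlap of the groups, though their means were closer together than the Ctrl libraries. Of its 10 peaks, 7 had a value above 0, and in 6 both KO libraries were above both Ctrl libraries (in 1 they were below, and over all peaks the libraries separated one way or the other in 32.3%). The highest peak in its body, 18.6 kb from the start, held 478 and 467 in Ctrl against 521 and 462 in KO. The peak at its start held 423 and 316 in Ctrl against 386 and 288 in KO, so the groups overlapped in both of these.

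Irf4, on chromosome 13 from 30749226 to 30766976, held 1982 and 1619 in Ctrl against 2265 and 1949 in KO, and KO 2 was below Ctrl 1. Its log2 fold change was 0.23 (SE 0.15, 95% interval -0.07 to 0.52). It was 0.09 without Ctrl 2 and 0.39 without Ctrl 1 (unadjusted p = 0.0485, DESeq2, and 1.00 after adjustment). The 5033 bp peak over its start carried 45.7% of the Ctrl sum, with 878 and 783 in Ctrl against 1004 and 852 in KO. The groups separated in 1 of its 7 peaks, beside 32.3% of all peaks in either direction. The 1 that separated was an intronic peak 11.3 kb from the start (chr13:30759175-30761903). There the count was 435 and 342 in Ctrl against 501 and 525 in KO (log2 fold change 0.39, 95% interval -0.05 to 0.83, unadjusted p = 0.0793, DESeq2). This was the second lowest p among the 61 peaks and missed the unadjusted threshold.

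Gata3, on chromosome 2 from 9857078 to 9890034, held 3612 and 2993 in Ctrl against 3435 and 2731 in KO. Each KO library lay below the Ctrl library of like depth, and in 62.3% of all genes these 2 differences shared a sign, in either direction. The groups overlapped, and the 95% interval of the fold of KO over Ctrl ran from 0.762 to 1.15. Its first 5 peaks held no annotated start site, whereas the sixth, over the RefSeq start (chr2:9877057-9878648) and 12.2 kb from the annotated 5' end, held 330 and 249 in Ctrl against 337 and 283 in KO. The antisense gene Gm13256 lies under this peak as well, and the reads cannot be divided by strand. The 7985 bp peak that follows it carried 38.2% of the Ctrl sum, with 1475 and 1071 in Ctrl against 1366 and 954 in KO. Its log2 fold change of -0.13 (95% interval -0.58 to 0.32) was within the spread of the libraries. Per kb, the densest Gata3 peak was an intronic peak of 667 bp near the annotated 5' end (373 per kb in Ctrl), with 235 and 263 in Ctrl against 209 and 269 in KO. Over the 13 peaks the log2 fold changes ran from -0.36 to 0.15, 5 above and 8 below 0. The groups separated in 2, both lower in KO, whereas over all peaks they separated, in either direction, in 32.3%.

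The highest peak counted as gene body, 3182 bp long, had Ctrl counts of 437 and 365 and KO counts of 410 and 262, with overlap of the groups. Of the Gata3 peaks, 5 also belonged to 4930412O13Rik or 9230102O04Rik, annotated genes that overlap its 5' part, and reads without strand cannot be divided among them. 4930412O13Rik held 707 and 633 in Ctrl against 687 and 495 in KO, and 9230102O04Rik held 856 and 809 in Ctrl against 790 and 729 in KO. Neither passed the test (unadjusted p = 0.37 and 0.402, DESeq2).

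Prdm1, on chromosome 10 from 44437177 to 44528501, held 1103 and 1019 in Ctrl against 1214 and 1127 in KO, which do not overlap. The log2 fold change was 0.14 (SE 0.15, 95% interval -0.14 to 0.43). It had 1 peak upstream of the annotated 5' end and 9 peaks between 69.6 and 87.1 kb from it, around the RefSeq start. At the peak over that start, whose promoter sequence with the AP-1 letters is printed above, the count was 204 and 192 in Ctrl against 185 and 160 in KO, lower in KO with no overlap. The highest body peak, 80.4 kb from the annotated 5' end, held 226 and 216 in Ctrl against 255 and 264 in KO, higher in KO with no overlap. Neither peak passed the test (unadjusted p = 0.487 and 0.358, DESeq2).

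Nfil3, on chromosome 13 from 52967209 to 52981073, held 2334 and 2002 in Ctrl against 2559 and 1902 in KO, so that both Ctrl libraries lay between the KO libraries. The 95% interval of its fold ran from 0.83 to 1.28. Its 9 peaks had log2 fold changes of -0.07 to 0.31, the narrowest range of the genes with over 4 peaks. The longest, an intronic peak of 4228 bp, held 805 and 565 in Ctrl against 861 and 518 in KO. The highest promoter peak held 296 and 241 in Ctrl against 340 and 174 in KO. The last peak of Nfil3 also lies just upstream of n-R5s54, annotated as an rRNA gene, and its reads cannot be divided between them. In the longest peak and in the highest promoter peak the deep libraries were high and the shallow libraries low in either group.

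Bhlhe40, on chromosome 6 from 108660629 to 108666925, held 3304 and 2592 in Ctrl against 2513 and 2137 in KO. Both KO libraries were below both Ctrl libraries, and KO 1 lay close under Ctrl 2. The log2 fold change was -0.34 (SE 0.15, 95% interval -0.64 to -0.05), a fold of 0.789, with an unadjusted p of 0.0238 (DESeq2). Fitted as a peak among all peaks, the same stretch (chr6:108658024-108669230) gave -0.36 (95% interval -0.75 to 0.03, unadjusted p = 0.0681), so its interval then spanned 0. The deeper KO library stood -0.40 from the deeper Ctrl library on the log2 scale, and the shallower KO library -0.28 from the shallower Ctrl library. In 62.3% of all genes these differences shared a sign. The unadjusted call depended on single libraries: without Ctrl 1 it was -0.15 (unadjusted p = 0.423) and without KO 2 it was -0.23 (unadjusted p = 0.243), against -0.50 without Ctrl 2 and -0.47 without KO 1. The non-coding gene 0610040F04Rik lies under the same peak, and the reads cannot be divided between them.

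Id2, on chromosome 12 from 25093799 to 25097140, held 546 and 500 in Ctrl against 516 and 447 in KO, with a log2 fold change of -0.11 (95% interval -0.47 to 0.24). Its main peak, over the start site, carried 81.3% of the Ctrl sum. That peak held 448 and 409 in Ctrl against 384 and 358 in KO, lower in KO without overlap but with an unadjusted p of 0.345 (DESeq2).

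Pparg, on chromosome 6 from 115360951 to 115490399, held 37.2 and 33.4 in Ctrl against 48.4 and 74.4 in KO. Its 1 peak is the one printed above, with its midpoint 592 bp from the nearest start site, and rested on raw counts of 24 to 82 per library. The log2 fold change of 0.77 was the only one of the 10 outside the range from the 5th to the 95th percentile of all genes (-0.39 to 0.41). With an SE of 0.48, its 95% interval of -0.18 to 1.71 spanned 0, and it was 0.45 without KO 2 and 1.07 without KO 1. The KO libraries differed from each other by more than the lower of them did from Ctrl.

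Klrg1 and Areg encode surface and secreted molecules rather than regulators of transcription. Klrg1, on chromosome 6 from 122270596 to 122282882, held 244 and 217 in Ctrl against 252 and 201 in KO, with a log2 fold change of -0.015 (95% interval -0.49 to 0.46). Among its 3 peaks was the highest point estimate of the 61, an intronic peak of 246 bp with 16.5 and 20.7 in Ctrl against 34.5 and 39.2 in KO. Its log2 fold change was 0.99 (95% interval -0.19 to 2.18), from raw counts of 15 to 58. It carried 8.01% of the Ctrl sum, and the other 2 peaks had values below 0. The promoter peak held 106 and 109 in Ctrl against 115 and 73.2 in KO (log2 fold change -0.17, 95% interval -0.87 to 0.54). The longer body peak held 127 and 85.4 in Ctrl against 105 and 85.2 in KO (log2 fold change -0.16, 95% interval -0.87 to 0.55), and the groups overlapped in both.

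Areg, on chromosome 5 from 91139599 to 91148432, held 411 and 317 in Ctrl against 312 and 318 in KO, so only Ctrl 1 stood apart. Its log2 fold change was -0.22 (95% interval -0.64 to 0.20), and without Ctrl 1 it was -0.0086. The peak over its start held 226 and 169 in Ctrl against 176 and 135 in KO, and all 4 Areg peaks had values below 0, from -0.55 to -0.02, with overlap of the groups in each. Its highest body peak, of 308 bp, held 51.0 and 53.7 in Ctrl against 27.3 and 71.5 in KO.

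**Figure D3:**
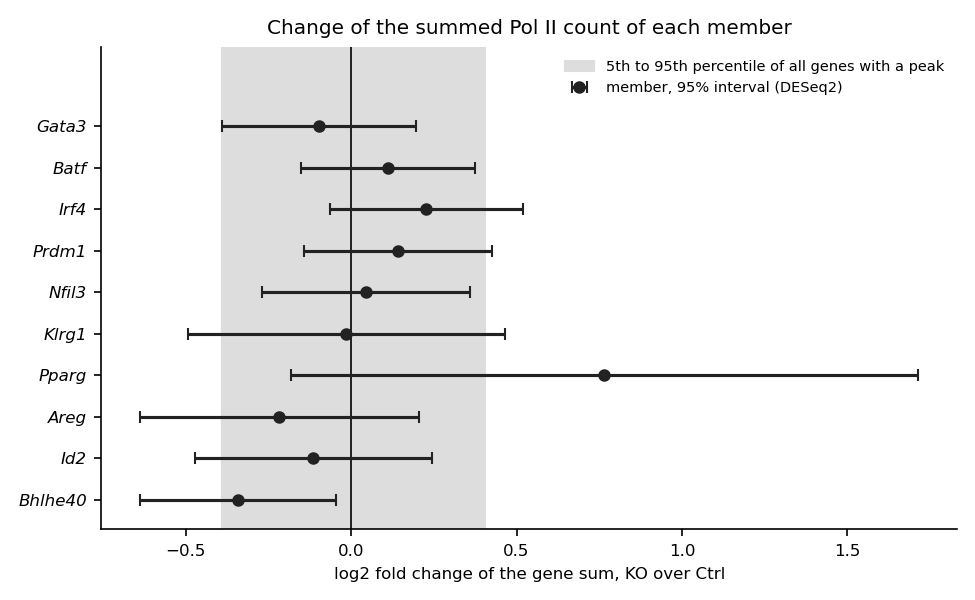
Log2 fold change of the summed Pol II count, KO over Ctrl (x axis), for each gene (y axis), with the 95% interval of the DESeq2 fit; the grey band spans the 5th to the 95th percentile of all 12876 genes. The interval of Bhlhe40 alone lies below 0, and those of the other 9 genes span 0.

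Library depth differed along with these values. Ctrl 1, the deeper control, was above Ctrl 2 after scaling in 10 of the 10 genes, and KO 1 was above KO 2 in 8, whereas over all genes these shares were 49.5% and 49.7%. Among the 1288 genes in the top 10% by length under peaks the shares were 57.9% and 58.7%. For 8 of the 10 genes the Ctrl libraries were further apart than the means of the 2 groups, and the share of all genes for which this held is not given here. The part of depth in the differences between KO and Ctrl was not tested.

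Peak by peak, 0 of the 61 peaks passed an adjusted p under 0.05, as did 0.0% of all 56615 peaks, and 0 passed an unadjusted p under 0.05, a level that 1.53% of all peaks passed. By edgeR, 27 of all peaks passed the adjusted threshold, 0 of them among the 61, and 2 of the 61 passed the unadjusted one (the Bhlhe40 peak, unadjusted p = 0.014, and the intronic Irf4 peak above, unadjusted p = 0.0311). The log2 fold changes of the 61 ran from -0.55 to 0.99 with a median of 0.03 (all peaks -0.01), 35 above and 26 below 0, and all 61 intervals spanned 0. Both KO libraries stood on 1 side of both Ctrl libraries in 31.1% of them (13 higher, 6 lower), beside 32.3% of all peaks. The lowest count of a library in any of these peaks was 7, in the 262 bp peak in the 3' UTR exon of Irf4, where Ctrl held 23.7 and 15.2 and KO 35.6 and 11.9.

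**Figure D4:**
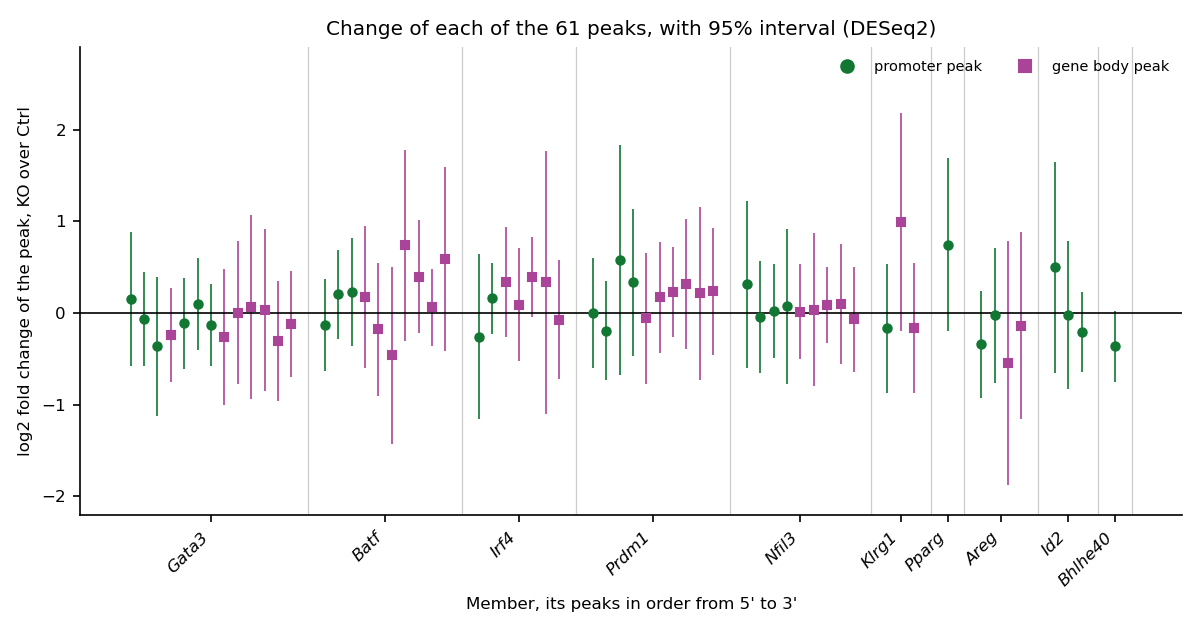
Log2 fold change of each of the 61 peaks, KO over Ctrl (y axis), grouped by gene and in order from 5' to 3' (x axis), with 95% intervals; circles are promoter and squares gene body peaks. Every interval crosses 0, and the widest belong to peaks of low counts such as those in the Irf4 3' UTR exon and the Areg introns.

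The balance of Pol II between gene body and promoter, taken as the log2 ratio of the 2 sums in each library, was tested with limma over the 4843 genes with enough counts in both. Pparg, Id2 and Bhlhe40 had no body peak by this rule and were not tested. None of the other 7 passed an adjusted p under 0.05, as 0.0% of all genes did, and none passed an unadjusted p under 0.05, which 3.2% of all genes did. Nfil3 had the highest ratio, 1.42 and 1.13 in Ctrl against 1.29 and 1.33 in KO on the log2 scale. Prdm1 had 0.58 and 0.70 in Ctrl against 0.84 and 0.78 in KO, higher in KO without overlap. Gata3, where several promoter peaks lie at internal start sites, had -1.1169 and -1.0932 in Ctrl and -1.1227 and -1.3118 in KO. KO was lower without overlap, but KO 1 lay barely below Ctrl 1. Irf4 had 0.174 and -0.097 in Ctrl against 0.198 and 0.190 in KO, higher in KO without overlap. How often the groups separated on this ratio over all genes is not given here. The differences of KO from Ctrl were -0.11 for Gata3 (95% interval -0.66 to 0.43), 0.17 for Prdm1 (-0.36 to 0.70), 0.16 for Irf4 (-0.42 to 0.73), 0.06 for Batf (-0.51 to 0.63) and 0.03 for Nfil3 (-0.54 to 0.61). They were 0.32 for Klrg1 (95% interval -0.46 to 1.10) and -0.08 for Areg (-1.40 to 1.24). The median difference over all genes was 0.03, a value that turned to -0.05 without Ctrl 1 and to -0.06 without KO 2.

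**Figure D5:**
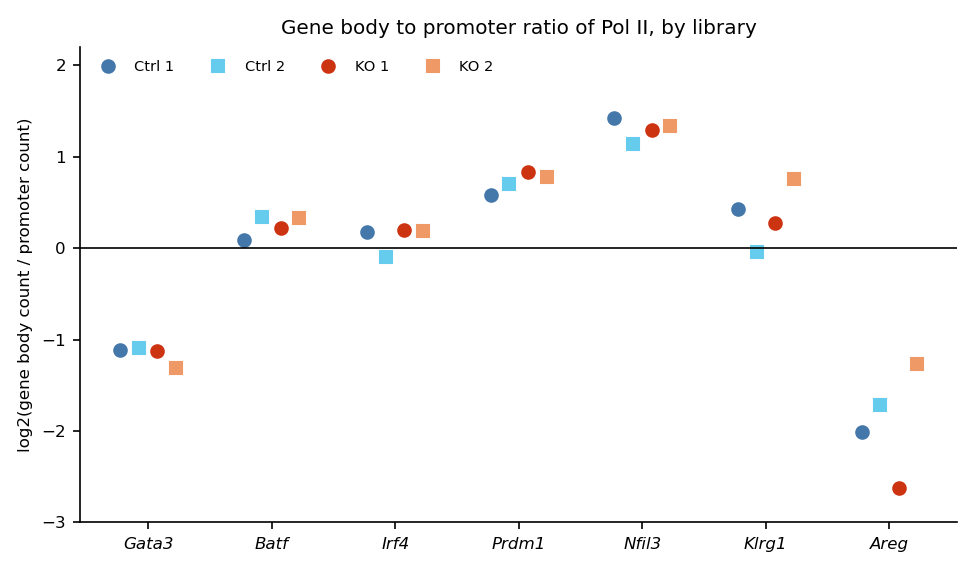
Log2 of the gene body count over the promoter count (y axis) in each library for the 7 genes with both (x axis); circles are the libraries numbered 1 and squares those numbered 2, Ctrl in blues and KO in red and orange. Nfil3 is above 1 and Gata3 below -1 in all 4 libraries, and the groups overlap for Batf, Nfil3, Klrg1 and Areg.

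The partners and paralogs of these factors gave a background of related genes. Of 34, 25 had a peak, and 0 were called. Their median log2 fold change was -0.02, with 10 above and 15 below 0. Gata1, Gata2, Ppara, Egfr, Ereg, Id4, Hlf, Prdm16 and Klrd1 had no peak. Fosl2, a FOS-family AP-1 subunit, was the only one at an unadjusted p under 0.05 (2600 and 2582 in Ctrl against 2160 and 2041 in KO, log2 fold change -0.30, unadjusted p = 0.0156, DESeq2). Junb, an AP-1 partner of BATF, held 11934 and 10458 in Ctrl against 10056 and 9083 in KO (log2 fold change -0.23, 95% interval -0.47 to 0.01). Irf8, a relative of IRF4 whose peaks are all shared with another gene, held 141 and 134 in Ctrl against 167 and 216 in KO, and Tcf12, an E protein that ID2 can sequester, held 291 and 237 in Ctrl against 345 and 339 in KO. Of these 4, chosen as the highest and lowest of the list, only Fosl2 had an interval that left out 0. The groups did not overlap in 10 of the 25 genes, beside 34.4% of all genes.

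Of 24 other genes of the tissue Treg programme 21 had a peak, 0 were called, and the median log2 fold change was 0.05. Ccr2, Penk and Plin2 had no peak. At an unadjusted p under 0.05, 2 were higher and 2 lower in KO, where 2.88% of all genes passed that level. Il1rl1, the gene of ST2 (a receptor for IL-33), held 341 and 290 in Ctrl against 188 and 170 in KO, and its log2 fold change of -0.82 (95% interval -1.28 to -0.36) was beyond that of any of the 10 genes in the same direction. The difference between Il1rl1 and those genes was not tested. Furin, a proprotein convertase, held 3379 and 3185 in Ctrl against 2777 and 2646 in KO. The inhibitory receptor gene Tigit held 2473 and 2078 in Ctrl against 3002 and 2645 in KO (log2 fold change 0.31, 95% interval 0.04 to 0.59). Cxcr6, a chemokine receptor gene whose only peak is shared with another gene, held 7.72 and 13.9 in Ctrl against 23.0 and 43.3 in KO. Gzmb, encoding granzyme B, held 225 and 182 in Ctrl against 239 and 258 in KO (log2 fold change 0.27, 95% interval -0.20 to 0.75).

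Genes of central Treg cells and the genes upstream of Gata3 were examined in the same way. All 10 central Treg genes had a peak, 0 were called, and the median was -0.06, with 3 above and 7 below 0. Satb1, a chromatin organiser, held 1501 and 1495 in Ctrl against 1165 and 1295 in KO (log2 fold change -0.29, unadjusted p = 0.0381, DESeq2). The lymph node homing receptor gene Ccr7 held 2458 and 2755 in Ctrl against 2103 and 2316 in KO, an unadjusted p of 0.07 (DESeq2). Foxp1, a transcription factor gene with 35 of its 119 peaks shared, held 8181 and 8432 in Ctrl against 9229 and 9258 in KO. The IL-33 receptor gene Il1rl1 (log2 fold change -0.82) was counted with the tissue Treg genes above and not in the next list. Of 10 other genes of the IL-33, IL-4 and IL-2 paths that induce GATA3, all had a peak. At the unadjusted level, which 2.88% of all genes passed, 0 of them passed, and their median was -0.03. Among them Il2rg, the common gamma chain gene with 1 peak that is shared with another gene, held 1628 and 1221 in Ctrl against 1339 and 1080 in KO, and Stat5a held 3040 and 2913 in Ctrl against 3138 and 3288 in KO. Il1rap, the co-receptor of ST2, held 121 and 116 in Ctrl against 144 and 130 in KO, and Traf6, an adaptor of that receptor, held 479 and 537 in Ctrl against 464 and 469 in KO.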

How the data were processed

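Paired-end reads of 150 bp were trimmed and aligned to mm10 (Bowtie2) by the authors, who kept unique reads, removed duplicates, called peaks with MACS2 (p of 0.01) against IgG, merged them with bedtools and deposited raw counts per merged peak; tool versions are not given in the sources used here. The deposited counts are not normalized, and 0 columns were left without a library. Peaks were assigned to GENCODE vM21 (GRCm38) genes, protein-coding genes first. Gene sums and peaks were tested with the DESeq2 1.42.0 Wald test (R 4.3.3, genotype only, two-sided, Benjamini-Hochberg over all features); edgeR 4.0.16 was an alternative. Gene body to promoter ratios of normalized counts (pseudocount 0.5, mean of at least 10 in each region) were tested with limma 3.58.1. The fits were also run on simulated counts with known changes, and the outcome is not given here. These counts held no effect shared by libraries of the same number, so they do not speak to such an effect. Named in the text are the 10 genes, genes sharing their peaks, their highest promoter and body peaks, and, of 4 lists, genes at an unadjusted p under 0.05 and the 2 highest and 2 lowest log2 fold changes with a mean of at least 50. A gene of 1 list and a marker gene are not reported here. Other peaks, and the sequences, were chosen after their values were seen. The members and lists were chosen with earlier results of these data known. Start positions are counted from 1, and sequences and motifs were read with Python 3.11.15 and pysam 0.24.0 from RefSeq tables and the genome of GRCm38.p6, which has the coordinates of mm10.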

Additional observations from a re-analysis of the deposited data

How the results depend on the processing

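Of all genes, 13 passed the adjusted threshold by DESeq2, 0 by edgeR (630 at an unadjusted p under 0.05), 7 when only peaks of 1 gene were summed, and 0 to 3 when a library was left out. Of all peaks, 0 passed by DESeq2 (864 unadjusted), 27 by edgeR and 0 to 5 with a library left out. With a replicate block (libraries of the same number taken as paired) 114 genes and 25 peaks passed, and 1 of the 10 genes, Bhlhe40 (log2 fold change -0.34, adjusted p = 0.00235, DESeq2). Over its other alternatives that leave out no library the adjusted p of Bhlhe40 ran from 0.924 (edgeR) to 1.00 (DESeq2). The labels do not say that equal numbers mark a shared batch; their deviations correlated at 0.372 over gene sums and 0.234 over peaks, with 2 pairs only. Scaling by TMM or total count, a minimum mean count of 10, 10 kb upstream or any overlap changed no call among the 10 genes. Leaving out a library turned the sign of the log2 fold change of Gata3 (-0.28 to 0.056), Nfil3 (-0.19 to 0.24) and Klrg1 (-0.20 to 0.13), and of the body to promoter difference of Batf (-0.063 to 0.18), Nfil3 (-0.11 to 0.18) and Areg (-0.76 to 0.60). A promoter limit of 1 kb gave 0.25 for Areg on the latter scale. The causes were not tested. With 2 libraries a group and peaks of as few as 7 counts, the intervals of single peaks were wide, and what size of change could be detected is not given here.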

Other observations

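Peaks outside the gene windows but within 50 kb of the 10 genes were looked at after the values of the genes were seen. There were 48 of them, with a median log2 fold change of -0.08 and a range of -0.78 to 1.27, and 0 passed an adjusted p under 0.05 (DESeq2), while 1 passed an unadjusted p under 0.05, a level that 1.53% of all peaks passed. That peak lay 19.3 kb downstream of Bhlhe40 (chr6:108685951-108686589) and held 81.2 and 109 in Ctrl against 57.6 and 51.1 in KO (log2 fold change -0.78, 95% interval -1.56 to -0.0081). All 6 peaks counted downstream of Bhlhe40 had values below 0, from -0.78 to -0.13, and both KO libraries were under both Ctrl libraries in 3 of them; over all peaks the libraries separated, in either direction, in 32.3%. The highest of the 6, 21.7 kb downstream, held 241 and 219 in Ctrl against 196 and 158 in KO. Separation was not particular to Bhlhe40. The 2 such peaks near Prdm1 had values of 0.60 and 1.01, both higher in KO without overlap. Near Nfil3 the 10 such peaks ran from -0.31 to 1.27 with a median of 0.12. Several of these separated, each with KO higher. The 11 near Klrg1 ran from -0.39 to 0.73 with a median of -0.06.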
